A study of Mus musculus with 6 samples.

Results

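Genes for the receptors of glutamate, GABA and glycine were examined after *Paupar* knockdown in N2A cells, an established line from a mouse neuroblastoma. A gene was included when a transcript cluster of the array (a row of the deposited table) carried a single symbol of the ionotropic glutamate receptor families (*Gria*, *Grik*, *Grin*, *Grid*), the metabotropic glutamate receptors (*Grm*), the GABA receptors (*Gabr*, *Gabbr*) or the glycine receptors (*Glra*, *Glrb*). This gave 46 genes of 19938 named genes: 4 AMPA, 5 kainate, 6 NMDA, 1 delta, 7 metabotropic glutamate, 16 GABA-A, 2 GABA-B and 5 glycine receptor genes. Family members without such a row were not analysed here. The knockdown group was 3 N2A cultures transiently transfected with 1.5 µg of a vector whose short hairpin RNA targets *Paupar*, a long noncoding RNA made upstream of *Pax6*. The control group was 3 N2A cultures that received a non-targeting vector. Both groups were grown in serum-containing medium and their RNA was taken 2.5 days after transfection, 1 array per culture. Transfection was transient, so each culture can hold untransfected cells. All values are log2 RMA values, which are background-corrected and quantile-normalised array intensities, and differences are knockdown minus control.

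Glutamate receptors carry most fast excitation in the brain. AMPA, kainate and NMDA receptors are cation channels assembled from several subunits, and metabotropic receptors signal through G proteins. GABA-A and glycine receptors are chloride channels that mostly inhibit mature neurons, whereas GABA-B receptors act through G proteins and need both of their subunits. Neuroblastoma cells derive from the sympathetic lineage, where acetylcholine rather than glutamate is the main fast transmitter.

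No array row was assigned to *Paupar*, so the depth of the knockdown was not analysed here. Array medians over all rows lay between 7.40 and 7.47. Of 10 measured sympathetic neuroblast markers, all 10 lay above the array median, 3 of them changed, and their mean level was 10.5 to 10.64 on knockdown arrays and 10.8 to 10.86 on control arrays. None of 5 astrocyte and 5 blood and microglia markers lay above the median, nor did the glutamatergic and GABAergic markers other than *Emx1*, *Dlx1*, *Dlx2* and *Lhx6*. Of the oligodendrocyte, endothelial and fibroblast markers *Mbp*, *Sox10*, *Pecam1*, *Col1a1*, *Col1a2* and *Col3a1* lay above it, and 0 markers outside the neuroblast list changed. Of all genes tested 7.54% changed, 722 of 6002 above the median and 30 of 3967 below it, where most of those other markers lay. Control replicate 1 was the highest of the controls for 67.4% of receptor genes and 47.0% of all named genes. Among genes below the array median the shares were 65.9% and 60.1%. The part of control replicate 1 in the differences was measured by leaving it out. In these bulk cultures, fewer cells that express a gene and less RNA per cell cannot be told apart.

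Most receptor genes gave little signal in this line. Only 5 of the 46 (10.9%) lay above the array median in control cells (mean of the medians 7.43), against 55.6% of all named genes: *Gabbr1*, *Grik5*, *Gria2*, *Grin2d* and *Grm2*. These are 1 gene each of the GABA-B, kainate, AMPA, NMDA and metabotropic glutamate families, and no GABA-A, glycine or delta receptor gene was among them. *Grm2* was only just above, and lay below when the median was taken over named genes alone. Probes differ in their response, so the levels of different genes were compared only through this coarse division. A value below the median does not show that a gene was silent.

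The comparison of knockdown with control asked whether the receptor genes changed. None of the 46 receptor genes passed the test. After removal of the least variable genes, 19 receptor genes remained and 0 were called (limma, Benjamini-Hochberg adjusted p under 0.05). Of all 9969 genes tested 7.54% were called, 5.16% lower and 2.39% higher. Of the 19 receptor genes, 16 lay below the array median. There 30 of 3967 genes tested were called, against 722 of 6002 above it. When all named genes were tested without that filter, 0 of 46 receptor genes and 3.07% of all genes were called. At an unadjusted p under 0.05, that fit picked 7 receptor genes (15.2%), against 18.4% of all genes. The knockdown values lay below every control value for 2 receptor genes (4.35%; 10.8% of all genes) and above every control value for 6 (13.0%; 12.8% of all genes). These shares of receptor genes were near or below those of all genes, but 41 of the 46 lay below the array median. Below it, the fit without the filter gave a limma unadjusted p under 0.05 for 9.76% of receptor genes and 7.3% of all named genes. Above it, the shares were 60% of the 5 receptor genes and 27.3% of all named genes. By that unadjusted p, the receptor shares at matched level were thus not below those of all genes. The share called was 0 at both levels, with 16 receptor genes tested below the median and 3 above it. At each level the share without overlap was above that of all genes in 1 direction and below it in the other. Simulated data of the same design returned 39.6% of log2 changes of 0.5, so small changes can be missed.

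**Figure D1:**
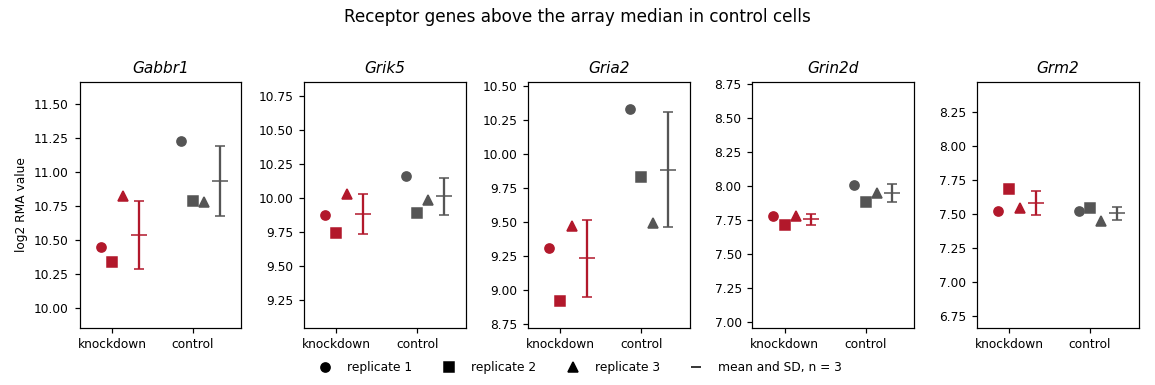
Log2 RMA values (y axis) of the 5 receptor genes above the array median, on the 3 knockdown (red) and 3 control (grey) arrays; symbols mark replicates and bars give the mean and SD. The knockdown and control values of *Gria2* and *Grin2d* do not overlap, and those of *Gabbr1*, *Grik5* and *Grm2* do.

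*Gria2* had the largest difference of the 46 genes. It encodes the AMPA receptor subunit that, once its RNA is edited, makes the channel nearly impermeable to calcium. Its promoter window is printed because it alone among the 35 receptor genes with a window holds the letters of the repressor element RE1, which the transcriptional repressor REST binds in many neuronal genes. The window runs from 250 bases before to 50 bases after the annotated start (RefSeq, GRCm38.p6, chr3:80802786-80803085, minus strand). Capitals mark the element, which reads AGCACCGCGGACAGC on the opposite strand.
Gria2 promoter: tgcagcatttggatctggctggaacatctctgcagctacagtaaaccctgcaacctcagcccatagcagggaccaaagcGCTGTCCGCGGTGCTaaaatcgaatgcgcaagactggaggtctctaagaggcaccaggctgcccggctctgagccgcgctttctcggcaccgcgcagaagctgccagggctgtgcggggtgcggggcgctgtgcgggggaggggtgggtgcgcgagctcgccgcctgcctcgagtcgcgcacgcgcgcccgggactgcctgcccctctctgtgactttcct

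The level of *Gria2* was 9.31, 8.92 and 9.47 on knockdown arrays 1 to 3, against 10.33, 9.83 and 9.49 on control arrays 1 to 3. The groups did not overlap, but knockdown replicate 3 came close to control replicate 3. The means were 9.23 ± 0.28 in knockdown and 9.89 ± 0.42 in control cells (SD, n = 3 each), a difference of -0.65 (SE 0.19, 95% interval -1.06 to -0.25) or a 1.57-fold lower value. This just missed the threshold (limma, adjusted p = 0.05005), and *Gria2* ranked 754 of 9969 genes by p where 752 were called. The side of the threshold turned on the setting. Filtering on sample variance gave a limma adjusted p of 0.00103 and testing all named genes gave 0.122. The difference was -0.43 without control replicate 1 (limma adjusted p = 0.143), and -0.77 without knockdown replicate 3 (limma adjusted p = 0.04458).

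*Gria1*, *Gria3* and *Gria4*, the other AMPA subunits, lay far below the array median, with control means of 6.12, 5.27 and 5.64. Their differences were -0.07, -0.14 and -0.01; their 95% intervals all included 0. All 4 AMPA genes thus had a difference below 0, as did 41.6% of all named genes, and in all 4 control replicate 1 was the highest control. The shared sign rested on single arrays. Without control replicate 1, *Gria1* and *Gria4* differed by 0.01 and 0.04 and *Gria3* by -0.09, and without knockdown replicate 3 *Gria4* differed by 0.01.

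*Gabbr1*, which encodes the GABA-binding subunit of the GABA-B receptor, was also above the median. It is shown because its promoter carries 3 copies of the GC box GGGCGG (both strands), a motif bound by Sp1, and neither block of RE1. Capitals mark the GC boxes (RefSeq, GRCm38.p6, chr17:37045716-37046015, plus strand).
Gabbr1 promoter: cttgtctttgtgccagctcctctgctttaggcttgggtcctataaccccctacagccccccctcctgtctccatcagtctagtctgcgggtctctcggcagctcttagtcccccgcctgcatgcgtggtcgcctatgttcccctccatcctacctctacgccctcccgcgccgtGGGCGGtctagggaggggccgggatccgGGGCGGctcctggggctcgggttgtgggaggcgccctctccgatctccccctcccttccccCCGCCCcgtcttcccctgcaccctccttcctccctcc

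The level of *Gabbr1* was 10.45, 10.34 and 10.82 on knockdown arrays, against 11.23, 10.79 and 10.78 on control arrays. Knockdown replicate 3 lay above control replicates 2 and 3, so the groups overlapped. The means were 10.54 ± 0.25 in knockdown and 10.93 ± 0.25 in control cells (SD, n = 3 each), a difference of -0.39 (SE 0.16, 95% interval -0.73 to -0.06; limma adjusted p = 0.1293). The difference was -0.54 without knockdown replicate 3, where it passed the test (limma adjusted p = 0.04375), and -0.25 without control replicate 1 (limma adjusted p = 0.2554). *Gabbr2*, the subunit that couples the receptor to its G protein, stood below the median at 7.04 ± 0.06 in knockdown and 6.98 ± 0.15 in control cells (SD, n = 3 each), a difference of 0.06 (95% interval -0.20 to 0.32).

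The other receptor genes above the median moved less. *Grik5* encodes a kainate subunit that forms channels only together with other subunits. Its level was 9.87, 9.74 and 10.03 on knockdown arrays and 10.16, 9.89 and 9.98 on control arrays, a difference of -0.13 (SE 0.10, 95% interval -0.36 to 0.10; limma adjusted p = 0.562). It was -0.06 without control replicate 1 and also without knockdown replicate 2. *Grin2d*, an NMDA subunit expressed mostly early in brain development, was at 7.78, 7.71 and 7.78 on knockdown arrays and 8.01, 7.88 and 7.95 on control arrays. Every knockdown value of *Grin2d* lay below every control value. The difference was -0.19 (SE 0.11, 95% interval -0.43 to 0.05; limma adjusted p = 0.2902). In the fit to all named genes, the one used for *Grik5*, the SE of *Grin2d* was 0.08. There its limma p was 0.0381 unadjusted and 0.237 adjusted. The difference stayed between -0.22 and -0.16 when single arrays were left out. Of the 5 genes, *Gria2* and *Grin2d* were thus without overlap and lower in knockdown (40.0%), against 16.9% of all named genes above the median. Without overlap and higher were 0 of the 5, against 15.7%.

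*Grm2* encodes a metabotropic receptor that lowers adenylyl cyclase activity and acts largely before the synapse. Its promoter is shown beside that of *Gria2* because among those 35 it is the only other promoter with both blocks of RE1, here 7 bases apart in place of 2. The window also holds 4 GC boxes, which are not marked. Capitals mark the blocks AGCACC and GGACAGC (RefSeq, GRCm38.p6, chr9:106656060-106656359, minus strand).
Grm2 promoter: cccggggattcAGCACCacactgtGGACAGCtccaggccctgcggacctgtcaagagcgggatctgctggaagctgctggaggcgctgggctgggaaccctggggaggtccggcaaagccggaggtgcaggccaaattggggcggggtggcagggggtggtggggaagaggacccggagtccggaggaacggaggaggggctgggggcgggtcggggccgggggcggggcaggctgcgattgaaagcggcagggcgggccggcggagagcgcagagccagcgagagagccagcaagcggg

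The level of *Grm2* was 7.52, 7.68 and 7.54 on knockdown arrays and 7.52, 7.54 and 7.45 on control arrays. The groups overlapped, and the difference was 0.08 (SE 0.08, 95% interval -0.11 to 0.26; limma adjusted p = 0.6711). Of the 5 receptor genes above the median it was the only one with a difference above 0.

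**Figure D2:**
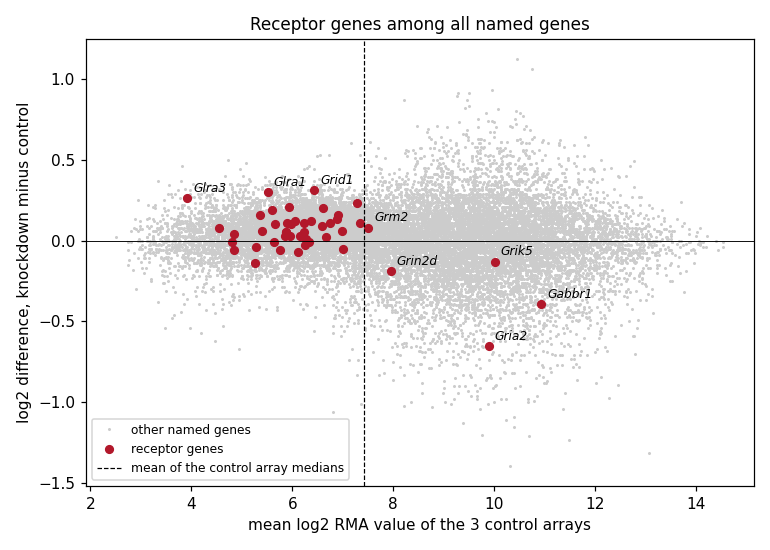
Difference between knockdown and control (y axis, log2) against the mean log2 RMA value of the 3 control arrays (x axis) for the 46 receptor genes (red) and the other named genes (grey); the dashed line is the mean of the control array medians, 7.43. *Gria2* and *Gabbr1*, at -0.65 and -0.39, lie apart to the lower right, and the 41 genes left of the line lie between -0.14 and 0.31.

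Promoter windows of the same length were found for 35 of the 46 genes. The contiguous letters AGCACC, any 2 bases, GGACAGC were searched on both strands and occurred in 10 of 32851 windows (0.0304%), among the receptor genes in *Gria2* alone. Both blocks at any spacing were in 390 windows (1.19%), among receptor genes in *Gria2* and *Grm2*. The GC box was in 20 of 35 receptor genes (57.1%), where a gene with up to 3 windows counted if any held it. It was in 35.7% of all single windows, so the shares differ in unit. *Gria2* had none. GC content had a median of 67.3% (56.0 to 72.0) in the 5 genes above the array median and 59.3% (38.3 to 82.0) in 30 genes below it, with 52.7% over all windows. The ranges overlapped. A match of letters is no evidence of binding. *Rest* itself, looked at after its value was seen, was at 8.96, 8.81 and 8.83 on knockdown arrays and 8.29, 8.48 and 8.49 on control arrays. It rose by 0.44 (SE 0.12, 1.36-fold; limma adjusted p = 0.0382). That call was lost when any 1 of control replicates 1 and 3 and knockdown replicates 1 and 2 was left out, with limma adjusted p between 0.08003 and 0.168, and with all rows of the table (limma adjusted p = 0.1897). Its part in the level of *Gria2* was not tested.

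**Figure D3:**
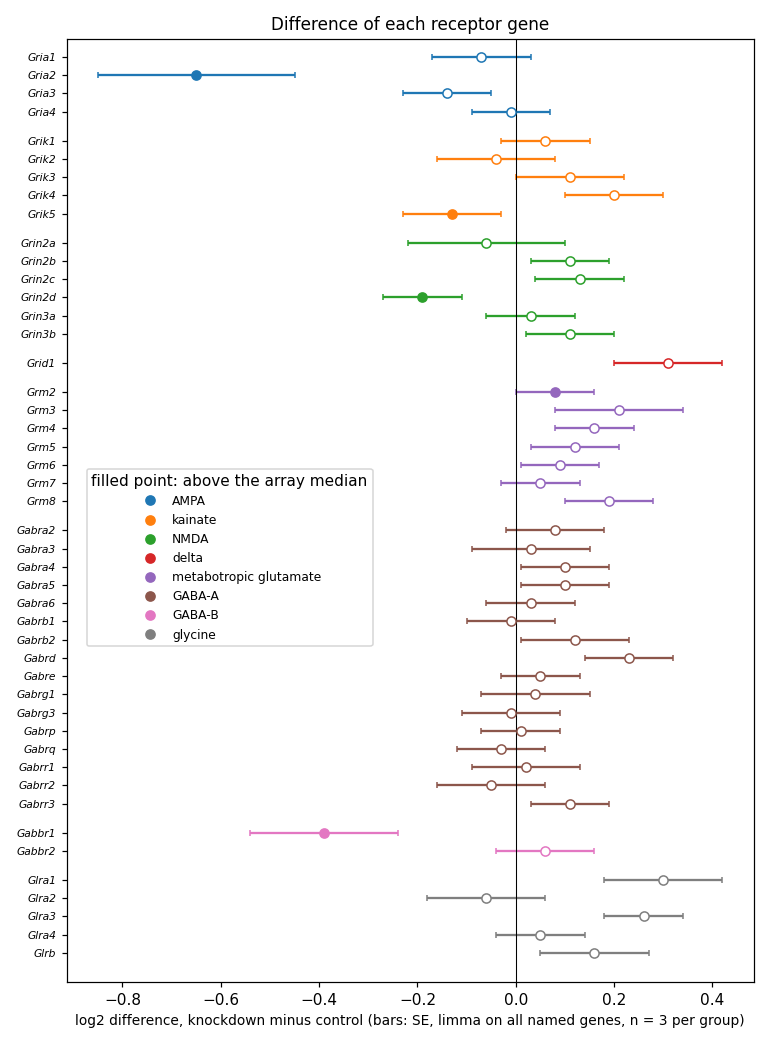
Difference of each of the 46 receptor genes (x axis, log2, knockdown minus control), ordered by family from AMPA to glycine; bars are standard errors of the limma fit to all named genes (n = 3 per group) and filled points lie above the array median. The 4 AMPA genes lie at or left of 0 and the 7 metabotropic glutamate genes right of it.

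Below the array median, 31 of 41 receptor genes (75.6%) had a difference above 0, with a median of 0.06, next to 68.7% and 0.05 for all named genes below the median. The share and the median were close to those of dim genes on these arrays in general. In 6 of the 41 (14.6%) all knockdown values exceeded all control values, against 9.13% of all named genes below the median. In 0 of the 41 all knockdown values lay below all control values, against 3.13%.

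**Figure D4:**
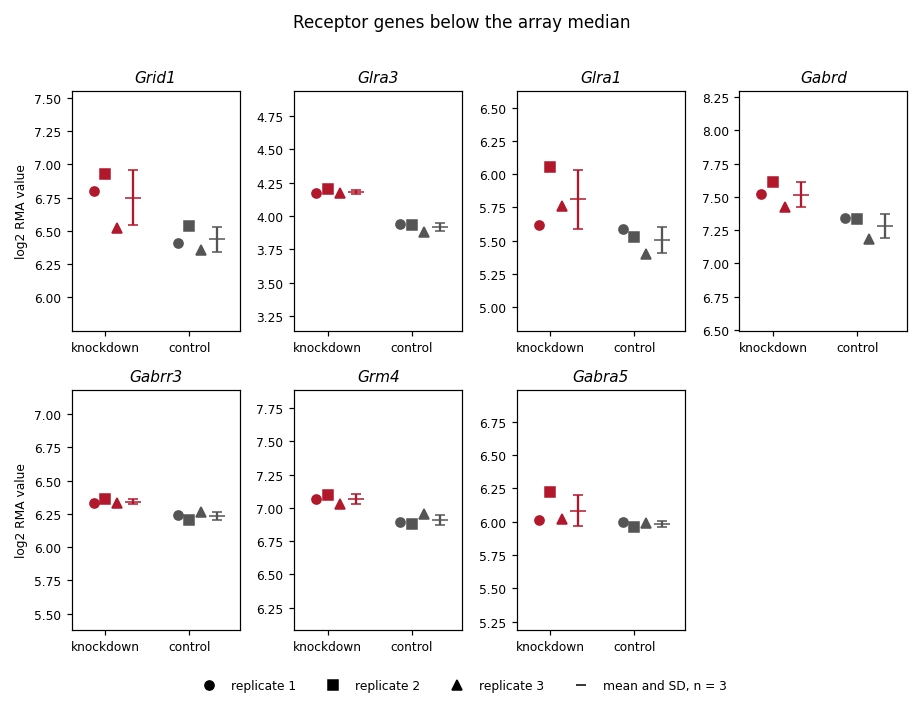
Log2 RMA values (y axis) on the 3 knockdown (red) and 3 control (grey) arrays of 7 receptor genes below the array median, those without overlap between groups and *Grid1*; bars give the mean and SD. In all but *Grid1* every knockdown value is above every control value, narrowly so in *Gabra5* and *Glra1*.

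*Grid1* encodes a delta receptor, a synaptic organiser related to glutamate receptors that does not open to glutamate. It had the largest difference above 0 of the receptor genes. Its level was 6.80, 6.93 and 6.52 on knockdown arrays and 6.41, 6.54 and 6.36 on control arrays. Knockdown replicate 3 lay just under control replicate 2. The difference was 0.31 (SE 0.13, 95% interval 0.03 to 0.59; limma adjusted p = 0.1519), and it passed the test without knockdown replicate 3 (0.43; limma adjusted p = 0.04135). Without knockdown replicate 2 it was 0.22 (limma adjusted p = 0.5163).

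None of the 5 glycine receptor genes passed the test. In the ligand-binding subunits *Glra1* and *Glra3* every knockdown value lay above every control value. *Glra1* was at 5.62, 6.05 and 5.76 on knockdown arrays and 5.59, 5.53 and 5.40 on control arrays, a difference of 0.30 (SE 0.13, 95% interval 0.02 to 0.59; limma adjusted p = 0.1664). Without knockdown replicate 2, the highest value, it was 0.18 (limma adjusted p = 0.5877). *Glra1* did not pass the variance filter there, so that p is from the fit to all named genes and not directly comparable. *Glra3* was at 4.17, 4.20 and 4.17 on knockdown arrays and 3.94, 3.93 and 3.88 on control arrays. Its replicates lay close together, and the difference was 0.26 (SE 0.11, 95% interval 0.02 to 0.50; limma adjusted p = 0.1537). In the fit to all named genes the SE of *Glra3* was 0.08. There its limma p was 0.00609 unadjusted, the lowest of the 46 genes, and 0.095 adjusted. The difference stayed between 0.24 and 0.28 when single arrays were left out. Its control mean of 3.92 was the lowest of the 46. *Glra2*, the main embryonic subunit, and *Glra4* differed by -0.06 and 0.05, and *Glrb*, the subunit that anchors the receptor to gephyrin, by 0.16 (95% interval -0.09 to 0.41). All 5 had control means of 3.92 to 5.88.

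All 7 metabotropic glutamate receptor genes had a difference above 0, from 0.05 for *Grm7* to 0.21 for *Grm3*, with a median of 0.12, as did 58.4% of all named genes and 68.7% of those below the median. None passed the test. The difference of *Grm3* was 0.07 without control replicate 2 and 0.12 without knockdown replicate 2, and *Grm7* differed by 0.00 without knockdown replicate 2. *Grm4*, a presynaptic receptor of the same inhibitory class as *Grm7* and *Grm8*, was at 7.07, 7.10 and 7.03 on knockdown arrays and 6.89, 6.88 and 6.95 on control arrays, without overlap (0.16; limma adjusted p = 0.3687). *Grm8* differed by 0.19 and *Grm6*, which serves retinal bipolar cells, by 0.09. *Grm5*, which couples to phospholipase C, differed by 0.12. Control means of the family ran from 5.59 to 7.50.

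The 16 GABA-A receptor genes all lay below the median, with control means of 4.54 to 7.28, and 12 of them had a difference above 0. *Gabrd*, a subunit of receptors outside the synapse, differed most. It was at 7.52, 7.61 and 7.42 on knockdown arrays and 7.34, 7.33 and 7.18 on control arrays, a difference of 0.23 (SE 0.12, 95% interval -0.02 to 0.49; limma adjusted p = 0.222). In the fit to all named genes the SE of *Gabrd* was 0.09, with a limma p of 0.0261 unadjusted and 0.197 adjusted. Of the alpha subunits, which contribute to the GABA binding site, *Gabra2*, *Gabra3*, *Gabra4*, *Gabra5* and *Gabra6* differed by 0.03 to 0.10. *Gabra5* had no overlap between groups, at 6.01, 6.22 and 6.02 on knockdown arrays and 6.00, 5.96 and 5.99 on control arrays. The beta subunit genes *Gabrb1* and *Gabrb2* differed by -0.01 and 0.12. *Gabrb2* had 3 rows that did not point one way, with differences of 0.12 in the row kept and 0.01 and -0.14 in the dimmer ones. *Gabrg1* and *Gabrg3*, gamma subunits, differed by 0.04 and -0.01. Of the rho subunits, known from the retina, *Gabrr1* and *Gabrr2* differed by 0.02 and -0.05, and *Gabrr3* by 0.11 without overlap, at 6.33, 6.36 and 6.33 on knockdown arrays and 6.24, 6.20 and 6.26 on control arrays. *Gabre*, *Gabrp* and *Gabrq* differed by 0.05, 0.01 and -0.03.

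The remaining kainate and NMDA genes showed no shared direction. *Grik1*, *Grik2* and *Grik3*, which can form channels of their own, differed by 0.06, -0.04 and 0.11. *Grik4*, like *Grik5* a partner subunit, differed by 0.20 (95% interval -0.03 to 0.42), so the pair lay on opposite sides of 0. *Grin2a*, *Grin2b* and *Grin2c*, which bind glutamate, differed by -0.06, 0.11 and 0.13. *Grin2a* was the most scattered of them, at 5.66, 6.10 and 5.36 on knockdown arrays against 5.88, 5.64 and 5.77 on control arrays. *Grin3a* and *Grin3b*, glycine-binding subunits, differed by 0.03 and 0.11. The 95% interval of each of these genes included 0.

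Genes that serve the receptors were counted in 4 lists: auxiliary subunits, anchoring and trafficking proteins, enzymes and transporters of the transmitters, and chloride transporters with downstream signalling. Of 106 genes listed, 97 were measured, and 52 passed the variance filter. Of these, 7 fell and 0 rose (13.5%, where 7.54% of all genes tested were called, 5.16% lower and 2.39% higher). All 7 lay above the array median, as did 62.9% of the 97 genes. Above it, 722 of 6002 genes tested were called, a larger share than over all genes. The 52 genes also held some below the median, so 13.5% is not a share at matched level. As all 7 lay above it, the share of companion genes called there was larger than 13.5%. The downstream list held 4 of the 7, out of 13 tested, the anchoring list 2 of 17, the transmitter list 1 of 12 and the auxiliary list 0 of 10. Over the 97 genes, knockdown values lay below every control value in 18 (18.6%) and above in 12 (12.4%). The shares were 10.8% and 12.8% of all named genes, and 16.9% and 15.7% of those above the array median. The median difference over the 97 genes was -0.01, next to 0.03 over all named genes.

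*Nos1*, the neuronal nitric oxide synthase that is tethered to NMDA receptors, fell most. It was at 8.07, 8.07 and 8.26 on knockdown arrays and 9.03, 8.98 and 8.99 on control arrays, a difference of -0.87 (SE 0.12, 1.83-fold lower; limma adjusted p = 0.00166). It was the only one of the 7 to pass whichever single array was left out. Calcium/calmodulin-dependent kinases made up the rest of the downstream calls. *Camk2a*, which phosphorylates AMPA receptors, fell by 0.68 (8.49, 8.54 and 9.01 in knockdown, 9.69, 9.13 and 9.28 in control; limma adjusted p = 0.0264). *Camk2d* fell by 0.64 (10.37, 10.36 and 10.75 in knockdown, 11.30, 11.06 and 11.04 in control; limma adjusted p = 0.0152). *Camk4*, a nuclear kinase, fell by 0.43 (limma adjusted p = 0.0467). Its call was lost with arrays centred on their medians (limma adjusted p = 0.0609) and when any single array but knockdown replicate 3 was left out. In the *Camk2* genes knockdown replicate 3 was the closest to the controls, as it was in *Gria2*.

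*Abat*, the GABA transaminase that breaks GABA down, fell by 0.69 (10.15, 10.26 and 10.68 in knockdown, 11.28, 10.78 and 11.09 in control; limma adjusted p = 0.0218). Gephyrin, encoded by *Gphn*, anchors glycine and GABA-A receptors. It fell by 0.52 (10.46, 10.33 and 10.55 in knockdown, 10.87, 11.03 and 10.99 in control; limma adjusted p = 0.0202). *Dlg2*, a scaffold of NMDA receptors, also fell by 0.52 (8.98, 8.64 and 8.76 in knockdown, 9.34, 9.48 and 9.13 in control; limma adjusted p = 0.0323). No auxiliary subunit passed: *Shisa7*, which binds GABA-A and AMPA receptors, differed by -0.31 (limma adjusted p = 0.107) and *Cnih3*, an AMPA receptor auxiliary protein, by 0.20 (limma adjusted p = 0.379). The number of calls in the 4 lists rested on single arrays. Omitting knockdown replicates 1, 2 and 3 in turn gave 2, 1 and 10 calls, and omitting control replicates 1, 2 and 3 in turn gave 2, 5 and 1. The calls of *Abat*, *Camk2a* and *Camk2d* were lost without any 1 of control replicates 1 and 3 and knockdown replicates 1 and 2. That of *Dlg2* was lost without any 1 control or knockdown replicate 2, and that of *Gphn* without control replicate 3 or knockdown replicates 1 or 2. Without the variance filter *Camk2a* and *Abat* no longer passed (limma adjusted p = 0.06528 and 0.05412). When all rows of the table were tested, none of the 7 passed (limma adjusted p from 0.1143 to 0.1993).

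**Figure D5:**
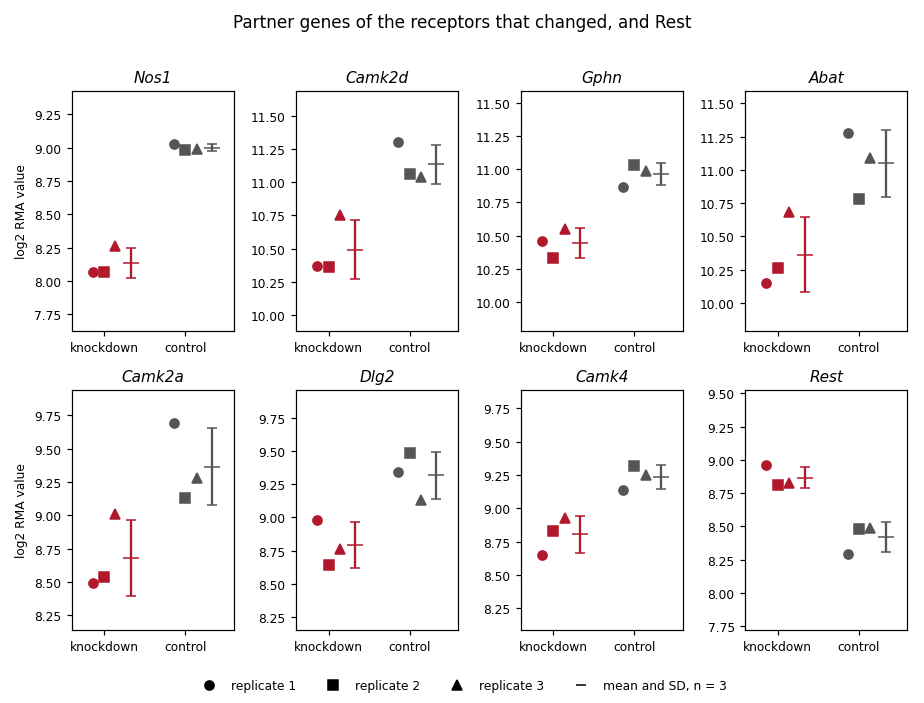
Log2 RMA values (y axis) on the 3 knockdown (red) and 3 control (grey) arrays of the 7 partner genes that fell and of *Rest*; bars give the mean and SD. Every knockdown value of the 7 is below every control value, with *Nos1* at 8.07 to 8.26 against 8.98 to 9.03, and the order is the other way round for *Rest*.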

How the data were processed

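RNA of 3 knockdown and 3 control cultures (200 ng each) was hybridised to Affymetrix Mouse Gene 1.0 ST arrays. The deposited values are log2 values that the authors background-corrected, quantile normalised and summarised by RMA; for their versions, the sources used here give none. The labels do not say what separates the cultures of a group, while the methods call them biological replicates. Of 35556 rows, 21789 had 1 gene symbol, 1621 several and 12146 none; 21698 matched RefSeq (GRCm38.p6) with 0 symbols changed. The row with the highest mean was kept per gene.

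Following the methods, genes with little variation were removed, taken here as the lower 50% by interquartile range, and 9969 genes were fitted with limma 3.58.1 (lmFit, eBayes; R 4.3.3), adjusting p over all of them by the Benjamini-Hochberg method. The 27 receptor genes below the filter took their values from a limma fit to all 19938 genes. Every receptor gene was named; those above the array median or with an unadjusted p under 0.05 were given in full, as were those without overlap between groups or otherwise singled out, which were chosen after their values were seen. Of each companion list up to 4 called genes, or 2 uncalled ones, were named. Receptor genes, lists and tests were chosen with earlier results of these data known. Alternatives were other filters, rows, centring, array weights, eBayes settings, a replicate block and leaving out each array. The steps were tested on simulated data (20 runs of 19938 genes, 200 changed), where 98.5% of changes of 1 were recovered and 6.77% of calls were false. The number of arrays limits the precision.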

Additional observations from a re-analysis of the deposited data

How the results depend on the processing

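The number of receptor genes called was 0 without the variance filter, with dim genes removed, with all rows, with rows averaged, with arrays centred and with a trended, robust prior. It was 1 (*Gria2*) with a filter on sample variance and 11 with array weights (3 lower, 8 higher), which gave control replicate 3 a weight of 4.44 and control replicate 1 a weight of 0.289; leaving out single arrays gave 0 to 3. For all genes the count of 752 became 0 with all rows of the table and 5561 with array weights, where 47.9% were lower in place of 68.4%, and 112 to 1239 when single arrays were left out. For the 4 companion lists the count of 7 became 12 with dim genes removed, 0 with all rows, 37 with array weights and 1 to 10 when single arrays were left out. The difference of *Gria2* was -0.85 to -0.43 over the arrays left out, with limma adjusted p from 0.04458 to 0.2247. The sign of the difference turned in 19 receptor genes, none of them called with equal array weights; *Gabra2* and *Gabra3* among them were called with array weights (0.23 and 0.22). With array weights *Gabrg3*, *Gabrr1*, *Glra2* and *Grin2a* differed by 0.16, -0.02, 0.05 and 0.08. Over the arrays left out, the differences ran from 0.00 to 0.18 for *Gabra2*, -0.04 to 0.13 for *Gabra3*, -0.04 to 0.08 for *Gabra6*, -0.08 to 0.05 for *Gabrb1*, -0.06 to 0.13 for *Gabrg1*, -0.11 to 0.05 for *Gabrg3*, -0.04 to 0.04 for *Gabrp* and -0.06 to 0.03 for *Gabrq*. They ran from -0.08 to 0.11 for *Gabrr1*, -0.13 to 0.06 for *Gabrr2*, -0.14 to 0.05 for *Glra2*, 0.00 to 0.11 for *Glra4*, -0.12 to 0.01 for *Gria1*, -0.06 to 0.04 for *Gria4*, 0.00 to 0.12 for *Grik1* and -0.18 to 0.03 for *Grik2*. They ran from -0.25 to 0.11 for *Grin2a*, -0.03 to 0.08 for *Grin3a* and 0.00 to 0.10 for *Grm7*. The sign of the 9 companion genes named and of *Rest* did not turn; the other companion genes were not followed singly. The cause of these shifts was not tested.

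Deviations of same-numbered knockdown and control arrays from their group means had correlations of -0.29, 0.06 and 0.08 across genes. Those of differently numbered arrays ran from -0.32 to 0.37. With 3 arrays per group these values cannot decide whether the cultures were handled in pairs, and the labels do not say. With a replicate block, 1 receptor gene was called (*Gria2*, limma adjusted p = 0.02554) and 680 genes in all, while *Camk4* and *Rest* were no longer called (limma adjusted p = 0.05519 for each). Of the 4 companion lists, 6 genes were called.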
